A study of Mus musculus with 24 samples.

Results

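Small nucleolar RNAs and small Cajal body RNAs were examined in 24 RNA-seq libraries of mouse liver. They were taken as every symbol of the deposited table that begins with Snord, Snora or Scarna followed by a digit, with host-gene names left out. This gave 123 of 35974 symbols: 76 C/D box RNAs (Snord), 38 H/ACA box RNAs (Snora) and 9 small Cajal body RNAs (Scarna). All mice were of strain C3H/HeJ, and the genotype was labelled wild type (WT) or transgenic (TGA). Each title gives the genotype, a number (1 to 4) and a suffix (2, 4 or 8) that is called the class here, and the 6 groups of genotype and class held 4 libraries each. Neither the meaning of the suffix nor the transgene, its promoter, the age of the mice or any treatment is stated in the labels. If the suffix stands for hepatocyte ploidy, the DNA content of the liver's main cell type, this is known from the series title alone, which concerns polyploid hepatocytes in chronic liver disease. No label says that libraries of a group came from separate animals, so p-values measure a spread between libraries that may be technical.

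C/D box RNAs guide the 2′-O-methylation of ribosomal RNA by the methyltransferase fibrillarin, and H/ACA box RNAs guide the conversion of uridine to pseudouridine by dyskerin. A few act instead in cutting and folding the ribosomal RNA precursor. Small Cajal body RNAs carry one or both kinds of box and guide the same modifications on the small nuclear RNAs of the spliceosome. In mammals most of these RNAs are cut out of introns of a host gene, often one that encodes a ribosomal protein or has no other known product, and they have no poly(A) tail.

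The RNAs on which the results turn are shown first, with the letters that define their class. They are GENCODE M21 transcripts on build GRCm38, written 5′ to 3′ with T for U. In C/D box RNAs the capitals mark TGATGA, the core of box C, where it lies within the first 30 bases, and the last CTGA, box D, within the last 20 bases. Snord17 guides methylation of the large-subunit ribosomal RNA, Snord15a and Snord15b (U15) are copies within 1 host gene, Snord118 (U8) is needed to process the large-subunit precursor, and Snord22 (U22) acts in making the small-subunit RNA.
Snord17: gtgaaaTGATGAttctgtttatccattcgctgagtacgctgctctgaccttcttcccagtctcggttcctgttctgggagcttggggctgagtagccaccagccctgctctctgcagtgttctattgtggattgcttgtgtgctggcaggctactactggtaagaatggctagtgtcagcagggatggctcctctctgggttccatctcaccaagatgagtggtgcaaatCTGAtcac
Snord15a: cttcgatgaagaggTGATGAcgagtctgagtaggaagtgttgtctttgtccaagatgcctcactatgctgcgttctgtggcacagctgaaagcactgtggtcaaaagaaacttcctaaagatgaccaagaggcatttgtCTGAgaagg
Snord15b: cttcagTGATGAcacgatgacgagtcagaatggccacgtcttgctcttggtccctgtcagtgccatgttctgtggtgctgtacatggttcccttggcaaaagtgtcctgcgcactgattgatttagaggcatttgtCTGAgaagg
Snord118: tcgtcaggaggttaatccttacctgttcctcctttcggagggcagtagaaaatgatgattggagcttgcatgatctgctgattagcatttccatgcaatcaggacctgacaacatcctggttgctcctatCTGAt
Snord22: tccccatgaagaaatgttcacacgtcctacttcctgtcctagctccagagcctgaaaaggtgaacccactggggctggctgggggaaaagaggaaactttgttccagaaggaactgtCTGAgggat

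H/ACA box RNAs end in ACA followed by 3 bases, and these letters are in capitals below. Snora23 had the highest values of its class, Snora73a and Snora73b (U17) are near-identical copies that act in making the small-subunit RNA, and Snora81 was among the RNAs with the largest class differences. The annotated Snora81 transcript does not have ACA at this place.
Snora23: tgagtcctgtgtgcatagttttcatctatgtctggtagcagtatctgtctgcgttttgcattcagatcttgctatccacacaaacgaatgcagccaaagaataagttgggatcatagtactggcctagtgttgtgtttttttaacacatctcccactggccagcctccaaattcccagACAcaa
Snora73a: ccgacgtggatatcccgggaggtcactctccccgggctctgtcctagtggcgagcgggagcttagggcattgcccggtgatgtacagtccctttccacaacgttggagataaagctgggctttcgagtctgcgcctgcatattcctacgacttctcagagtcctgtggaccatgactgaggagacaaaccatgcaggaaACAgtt
Snora73b: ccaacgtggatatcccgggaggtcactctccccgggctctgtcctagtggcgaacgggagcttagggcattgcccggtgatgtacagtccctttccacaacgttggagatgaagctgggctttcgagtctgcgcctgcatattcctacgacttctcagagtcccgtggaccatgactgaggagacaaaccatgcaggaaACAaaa
Snora81: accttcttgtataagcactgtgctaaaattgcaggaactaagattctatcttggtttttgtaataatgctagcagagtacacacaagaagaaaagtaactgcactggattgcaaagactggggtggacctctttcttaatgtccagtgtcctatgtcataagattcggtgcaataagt

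These letters followed the class names across the family. TGATGA lay in the first 30 bases of 49 of 75 C/D box RNAs with a sequence (65.3%) and of 0 of 38 H/ACA box RNAs. CTGA lay in the last 20 bases of 73 C/D box RNAs (97.3%) and of 4 H/ACA box RNAs (10.5%). ACA stood 3 bases before the end of 32 H/ACA box RNAs (84.2%) and of 0 C/D box RNAs. The given strand alone was searched, the windows did not overlap, and a match is a description of the letters, not a tested site. The median GC content was 45.1% in C/D box and 48.1% in H/ACA box RNAs.

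Most of these RNAs were listed at 0. Of the 123, 91 had the value 0 in all 24 libraries, and 32 (26%) were above 0 in at least 1 library, compared with 59.5% of all symbols. The classes differed in this share: 11 of 76 C/D box (14.5%), 18 of 38 H/ACA box (47.4%) and 3 of 9 Cajal body RNAs (33.3%) were above 0 in any library. Among those at 0 throughout were Snord13 and the 4 Snord14 copies in the table, which act in making small-subunit RNA, and Snord33, Snord34 and Snord35a of the ribosomal protein gene Rpl13a. Their neighbour Snord32a was above 0 in 1 library, WT number 2 class 8, at a level of 3.53 on the log2(normalised count + 1) scale used throughout. Snord116 and its relatives Snord116l1 and Snord116l2, of the imprinted Prader-Willi region, were also at 0 throughout. A 0 in this table can be a failed estimate as well as absence: Actb (beta-actin) was listed at 0 in 14 of 24 libraries and Gapdh (a glycolytic enzyme) in 19.

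Detection went with RNA length. Of the 122 RNAs with a GENCODE length, 7 of 65 under 100 bases were above 0 in any library (10.8%), 14 of 44 of 100 to 140 bases (31.8%) and 11 of 13 over 140 bases (84.6%). Within C/D box RNAs the counts were 6 of 63, 2 of 9 and 3 of 3, and within H/ACA box RNAs, of which none is under 100 bases, 12 of 32 and 6 of 6. The medians were close, however: 83 bases for C/D box RNAs above 0 in any library and 80 for those at 0 throughout. For H/ACA box RNAs they were 134.5 and 132 bases. The median was 145 bases for the 5 C/D box RNAs that could be tested. By RefSeq spans the shares were 14.1%, 33.3% and 90.9%, although single lengths differ between the annotations, as for Scarna2 with 61 bases in RefSeq and 414 in GENCODE. Other symbols by RefSeq span followed the same order, with 5.93% of 962 under 100 bases, 7.43% of 269 from 100 to 140, 26% of 150 over 140 and up to 500 and 63.2% of 31094 above that. H/ACA box RNAs alone did not follow it by RefSeq span, with 3 of 4 under 100 bases, 9 of 28 from 100 to 140 and 6 of 6 over 140. Per the labels' protocols the reads were single-end and 75 bp long, and a kit made for formalin-fixed tissue in paraffin was used to isolate the RNA. The part of read length, RNA purification and mapping in this order was not tested.

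**Figure D1:**
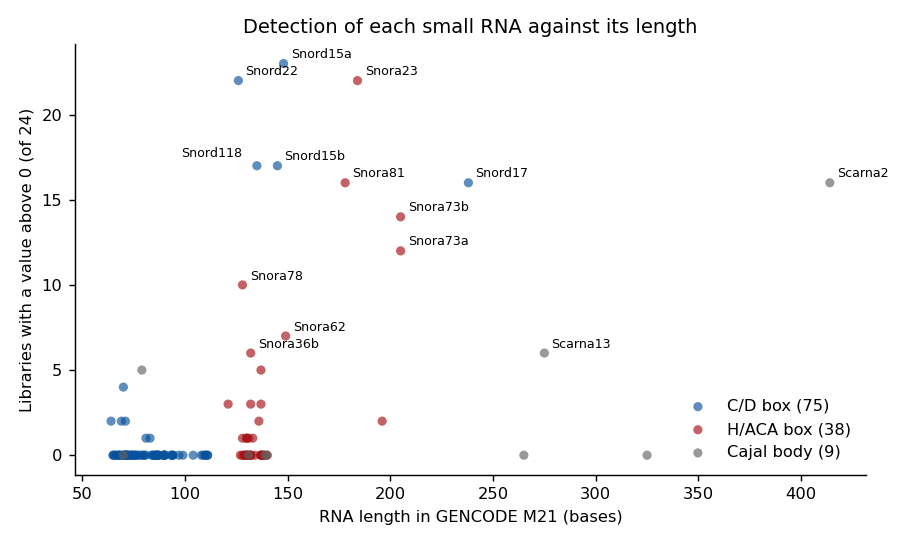
Each point is 1 of 122 small RNAs, with its GENCODE length in bases on the x axis and the number of the 24 libraries in which it was above 0 on the y axis. No RNA under 100 bases reached 6 libraries, and Snord15a, Snord22 and Snora23, above 0 in 23, 22 and 22 libraries, are all longer than that.

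A test was possible for 14 of the 123, those with a deposited value of at least 1 (natural log) in at least 4 libraries. They were 5 C/D box RNAs (Snord15a, Snord22, Snord17, Snord118 and Snord15b), 7 H/ACA box RNAs (Snora23, Snora81, Snora73b, Snora73a, Snora78, Snora62 and Snora36b) and 2 Cajal body RNAs (Scarna2 and Scarna13). Of all symbols, 4875 (13.6%) passed the same filter. An RNA can pass through 1 group alone, so counts over the 14 describe these RNAs and lend no support to a difference of the family.

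Levels per length set Snord15a highest. Its median over the 24 libraries was 244 normalised counts per 100 bases, followed by Snord22 with 109, Snora23 with 80.5, Snord17 with 38.7, Snord118 with 35.8, Snora81 with 14.8 and Snord15b with 10.7. Snora73b had 2.21, Scarna2 1.57 and Snora73a 0.166, and the medians of Snora78, Snora62, Snora36b and Scarna13 were 0. The middle 50% of libraries ran from 122 to 431 normalised counts per 100 bases for Snord15a, from 17.4 to 167 for Snord22 and from 32.3 to 125 for Snora23, and so overlapped. Within libraries, Snord15a was above Snord22 in 21 of the 23 where either was above 0, and Snord22 was above Snora23 in 14 of 23. Snord17 was above Snord118 in 9 of 19 libraries, and Snora81 above Snord15b in 5 of 19, so that these neighbours have no firm order. No test was made of these orders.

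The number of these RNAs above 0 was lowest in class 4. In class 2, WT libraries 1 to 4 held 25, 13, 12 and 10 of the 123, and TGA libraries 11, 13, 15 and 18. In class 4, the WT libraries held 19, 9, 3 and 3 and the TGA libraries 3, 5, 3 and 5. In class 8, the WT libraries held 11, 16, 5 and 8 and the TGA libraries 7, 12, 8 and 10. The median was thus 13 in class 2, 4 in class 4 and 9 in class 8. All 4 TGA class 4 libraries lay below every class 2 library and every TGA class 8 library, whereas WT number 1 class 4, with 19, exceeded all but 1 class 2 library.

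The number of genes of any kind above 0 moved with the class too, with medians of 4328.5, 2650.5 and 2788.5 genes in classes 2, 4 and 8. Per 1000 genes above 0, the median number of these RNAs was 3.25 in class 2, 1.36 in class 4 and 3.50 in class 8. The ranges were 1.32 to 6.28, 0.87 to 3.08 and 0.88 to 4.44, so that all classes overlapped. In libraries with under 5000 genes above 0, a limit chosen after the values were seen, 5 of class 2 held 11 to 15 of these RNAs, 7 of class 4 held 3 to 9 and 7 of class 8 held 5 to 16. Class 4 and class 2 did not overlap there, and class 8 overlapped both. The limit left out WT number 1 class 4, with 19 of these RNAs, which overlaps class 2, and WT number 4 class 2, with 10. The lack of overlap thus depends on the limit, and no conclusion is drawn from it. The part of gene detection in these counts was not tested.

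**Figure D2:**
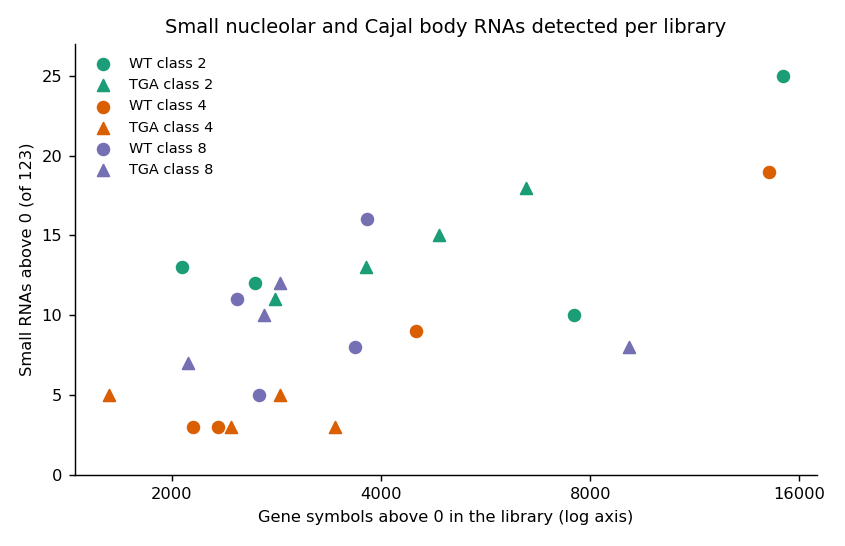
Each point is 1 of 24 libraries, with the number of gene symbols above 0 on the x axis (log scale) and the number of the 123 small RNAs above 0 on the y axis, coloured by class, circles for WT and triangles for TGA. TGA class 4 libraries hold 3 to 5, and TGA class 2 libraries 11 to 18.

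Group means showed the same order in C/D box and H/ACA box RNAs. The mean level of the 11 C/D box RNAs ever above 0 was 3.13 ± 1.02 in WT class 2, 1.64 ± 1.41 in WT class 4 and 2.98 ± 1.08 in WT class 8 (log2, SD over n = 4 libraries). In TGA it was 3.42 ± 0.13 in class 2, 1.29 ± 0.47 in class 4 and 2.55 ± 0.91 in class 8. The TGA class 4 libraries, from 0.68 to 1.69, all lay below the TGA class 2 libraries, from 3.30 to 3.59. WT class 4 ran from 0, in number 3, to 3.17, in number 1, and overlapped WT class 2, which ran from 1.66 to 3.95.

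The mean level of the 18 H/ACA box RNAs ever above 0 was 1.67 ± 0.49, 0.67 ± 0.27 and 1.40 ± 0.75 in WT classes 2, 4 and 8 and 1.47 ± 0.26, 0.51 ± 0.20 and 0.92 ± 0.52 in the TGA classes (log2, SD, n = 4). Every class 4 library lay below every class 2 library of its genotype: 0.32 to 0.95 against 1.21 to 2.36 in WT, and 0.26 to 0.69 against 1.21 to 1.83 in TGA. The 3 Cajal body RNAs ever above 0 (Scarna2, Scarna13 and Scarna17) averaged 3.82 ± 1.49, 1.03 ± 1.01 and 2.43 ± 2.06 in the WT classes and 2.47 ± 0.98, 0 and 0.83 ± 0.91 in the TGA classes, since all 3 were at 0 in all 4 TGA class 4 libraries. The mean over all 4875 tested genes moved less, from 1.68 to 1.58 and 1.5 in WT classes 2, 4 and 8 and from 1.96 to 1.41 and 1.66 in the TGA classes. Yet this mean too was lower in every TGA class 4 library (1.18 to 1.54) than in every TGA class 2 library (1.70 to 2.15). In WT it overlapped between these classes. With this mean subtracted from each library, the H/ACA box means of classes 4 and 2 overlapped in both genotypes. WT number 2 class 4 had 0.80 beside an all-gene mean of 1.40, and WT number 1 class 2 had 1.64 beside 2.39. TGA number 2 had 0.69 beside 1.18 in class 4 and 1.21 beside 1.95 in class 2. No test was made on these means, which are summaries over chosen RNAs.

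**Figure D3:**
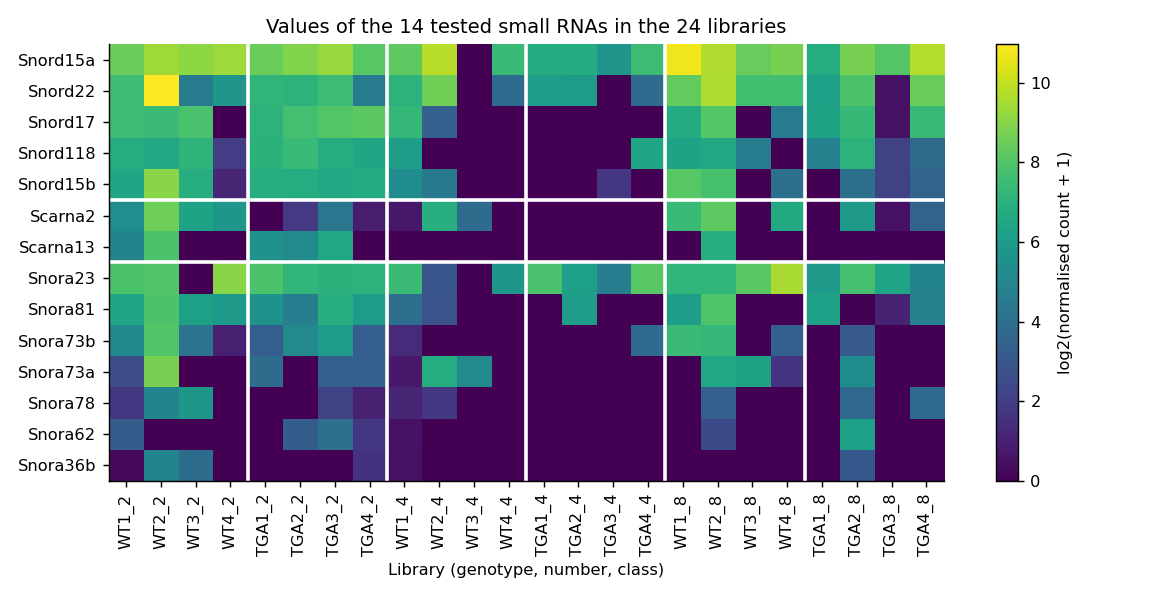
Rows are the 14 tested small RNAs and columns the 24 libraries ordered by class and genotype, and the colour gives the level as log2(normalised count + 1). Snord17, Snord15b, Snord118 and Snora81 are at 0 in most class 4 libraries, while Snord15a and Snora23 stay above 0 in 7 of 8.

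Class 4 against class 2, over both genotypes, gave 1 RNA past an adjusted p of 0.05, Snord17, the longest C/D box RNA here and a guide in an intron of the sorting nexin gene Snx5. Over all 4875 genes tested, 0.308% were called. In class 2, Snord17 levels were 7.53, 7.48, 7.83 and 0 in WT numbers 1 to 4 and 7.11, 7.69, 8.04 and 8.21 in TGA. In class 4 they were 7.29, 3.37, 0 and 0 in WT and 0 in all 4 TGA libraries. In class 8 they were 6.73, 8.09, 0 and 4.46 in WT and 6.32, 7.33, 0.50 and 7.39 in TGA. Thus 7 of 8 class 2 libraries were high, 6 of 8 class 4 libraries were at 0, and the classes overlapped in WT but not in TGA.

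Snord17 fell by 5.40 (SE 1.28) on the log2 scale in class 4 against class 2 (limma, Benjamini-Hochberg adjusted p = 0.039). Within TGA, where 0.841% of tested genes were called, it fell by 7.76 (SE 1.81, limma adjusted p = 0.0442), and within WT, where 0 genes were called and 226 had an unadjusted p under 0.05, the difference was -3.05 (SE 1.81, limma adjusted p = 0.999). The genotypes were not shown to differ in this respect: the interaction was -4.72 (SE 2.56, limma adjusted p = 0.800). The call over both genotypes was lost when WT number 2 was left out (adjusted p = 0.184) or WT number 3 (0.202), and when any 1 TGA number was left out (0.0958, 0.141, 0.144 and 0.109 without numbers 1 to 4, limma). It was kept without WT number 1 (0.0247) and WT number 4 (0.0413, limma), and it was lost with the number of genes above 0 as a covariate, where the difference was -5.34 (limma adjusted p = 0.110). In bulk samples fewer cells of a type and less RNA per cell cannot be told apart.

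The RNAs that act in cutting the ribosomal RNA precursor had lower mean values in class 4, and none passed the adjusted threshold. Snord118 was at 6.79, 6.52, 7.12 and 1.97 in WT class 2 and at 7.03, 7.40, 6.79 and 6.43 in TGA class 2. In class 4 it was at 6.13 in WT number 1 and 6.44 in TGA number 4, and at 0 in the other 6 libraries. The 2 class 4 libraries above 0 were thus within the class 2 range. The difference was -4.68 (SE 1.21, limma adjusted p = 0.0752).

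Snord22 ran from 4.46 to 10.97 in class 2 with a median of 7.16, and from 0 to 8.60 in class 4 with a median of 4.96, so that the classes overlapped (difference -2.44, SE 1.2, limma adjusted p = 0.359). Snora73b was above 0 in all 8 class 2 libraries, from 0.94 to 8.0 with a median of 4.63. In class 4 it was at 1.32 in WT number 1, 3.85 in TGA number 4 and 0 in the other 6 (difference -3.87, SE 1.12, limma adjusted p = 0.119). Its near-identical copy Snora73a ran from 0 to 8.73 in class 2 with a median of 2.99 and from 0 to 6.79 in class 4 with a median of 0 (difference -1.15, SE 1.24, limma adjusted p = 0.695).

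Among the modification guides, Snord15b and Snora81 came next to Snord17. Snord15b, which guides methylation of large-subunit ribosomal RNA, was at 6.49, 9.03, 6.84 and 1.19 in WT class 2 and at 6.85, 6.79, 6.61 and 6.75 in TGA class 2. In class 4 it was at 5.33, 4.44, 0 and 0 in WT and at 0, 0, 1.75 and 0 in TGA. All TGA class 4 libraries lay below all TGA class 2 libraries, and the WT classes overlapped through WT number 4. The difference was -4.88 (SE 1.2, limma adjusted p = 0.0537).

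Snora81, in the gene of the translation factor Eif4a2, was at 6.43, 7.91, 6.24 and 5.92 in WT class 2 and at 5.65, 4.73, 6.91 and 6.03 in TGA class 2. In class 4 it was at 3.94, 2.81, 0 and 0 in WT and at 0, 6.15, 0 and 0 in TGA. Here the WT classes did not overlap, and TGA number 2 made the TGA classes overlap. The difference was -4.61 (SE 1.22, limma adjusted p = 0.0805).

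Snord15a and Snora23 were the guides most often above 0 in class 4. Snord15a ran from 8.13 to 9.43 in class 2 with a median of 9.01, and from 0 to 9.80 in class 4 with a median of 7.07. The 4 TGA class 4 libraries, at 6.73, 6.76, 5.73 and 7.54, lay below all TGA class 2 libraries, at 8.49, 8.91, 9.30 and 8.13, and the difference over both genotypes was -2.38 (SE 0.88, limma adjusted p = 0.237). Snora23, in the importin gene Ipo7, ran from 0 to 9.04 in class 2 and from 0 to 8.10 in class 4, with medians of 7.55 and 6.0 (difference -1.38, SE 1.09, limma adjusted p = 0.571). Both were above 0 in 7 of 8 class 4 libraries. Snora78, Snora62 and Snora36b, above 0 in 10, 7 and 6 of 24 libraries, differed by -1.58, -1.47 and -1.28. Their class 4 means were 0.37, 0.07 and 0.06, from class 2 means of 1.95, 1.53 and 1.34.

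Both tested Cajal body RNAs had lower values in class 4. Scarna13 (U93), which guides pseudouridine formation on small nuclear RNAs, was at 4.93, 7.88, 0 and 0 in WT class 2 and at 5.61, 5.22, 6.59 and 0 in TGA class 2. It was at 0 in all 8 class 4 libraries, and the classes shared the value 0 (difference -3.78, SE 1.10, limma adjusted p = 0.123). Scarna2, which guides methylation of the U2 small nuclear RNA, ran from 0 to 8.56 in class 2 and from 0 to 6.91 in class 4, with medians of 4.84 and 0 (difference -2.70, SE 1.19, limma adjusted p = 0.318).

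Over the 14 tested RNAs, 14 differences of class 4 against class 2 were below 0, against 57.8% of all genes tested, and 10 were lower at an unadjusted p under 0.05, against 10.5% of genes. The median difference was -2.57, and over all genes tested it was -0.23. In WT alone 13 of 14 were below 0 and 8 had an unadjusted p under 0.05, against 2.93% of genes lower at that p. Without WT number 2 or 3 that count of 8 became 3 or 4. In TGA alone 14 of 14 were below 0 and 6 had such a p, against 12.4%, and 3 without TGA number 3. Ranges did not overlap between TGA class 4 and TGA class 2 for 3 of 14 (Snord15a, Snord15b and Snord17), against 6.4% of genes, and between the WT classes for 1 (Snora81), against 0.574%. Some of the 14 passed the filter through other classes alone, which largely fixed their direction. Scarna13 was at 0 in all 8 class 4 libraries, and the highest class 4 levels of Snora36b and Snora62 were 0.51 and 0.53. The counts are therefore descriptions and no support for a difference of the family.

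**Figure D4:**
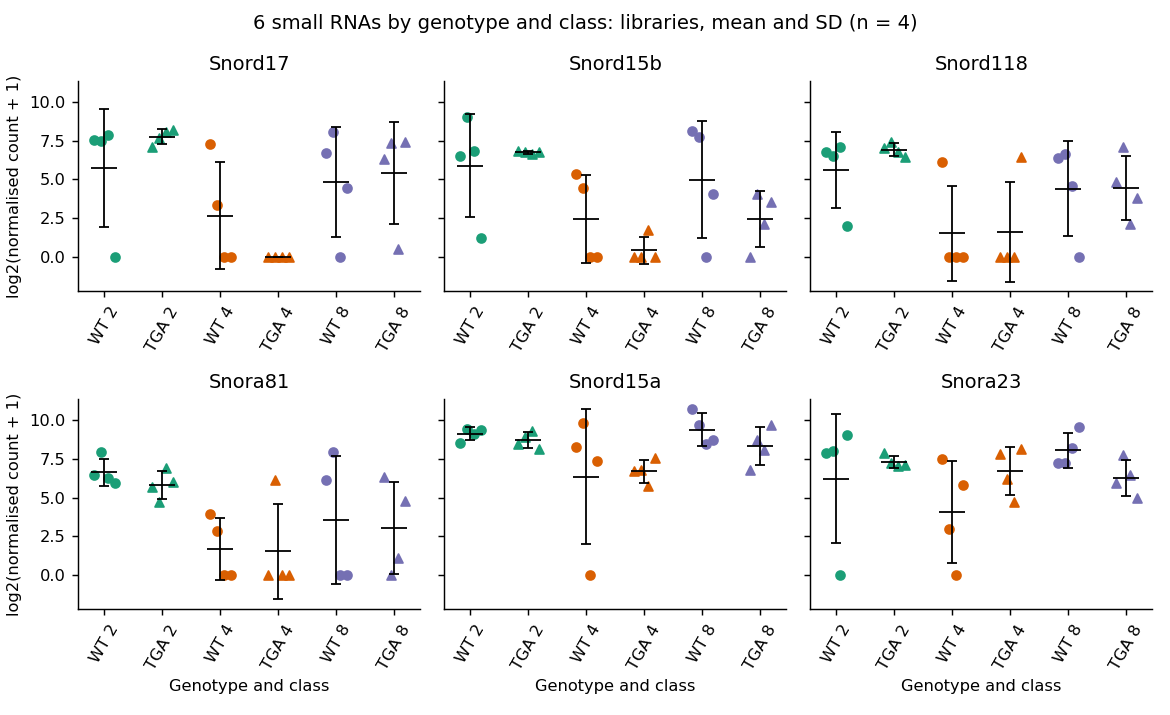
Levels as log2(normalised count + 1) on the y axis are drawn for single libraries in each of the 6 groups of genotype and class on the x axis, with the group mean and SD, for 6 of the tested RNAs. Snord17 is at 0 in all 4 TGA class 4 libraries and between 7.11 and 8.21 in TGA class 2.

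Class 8 lay between the other classes for most of these RNAs. Against class 2 no member was called (limma), where 0.0205% of tested genes were. Of the 14, 12 were below 0, as were 56.1% of all genes, with a median difference of -0.78 against -0.16 over all genes, and 3 had an unadjusted p under 0.05, against 6.07% of genes lower at that p. These 3 were Snora81 (-2.94, SE 1.22), Scarna13 (-2.93, SE 1.10) and Snord15b (-2.62, SE 1.2), with limma adjusted p of 0.551, 0.482 and 0.629. Without WT number 3 or TGA number 3 the count of 3 became 1, and the median was -1.39 without TGA number 2 and -0.42 without TGA number 3. Snora73b (-1.86), Snord118 (-1.83) and Snord17 (-1.63) followed by size, with limma adjusted p of 0.757, 0.780 and 0.837, and Snora36b differed by -0.96 (0.772). In class 8, Snora81 was at 6.15, 7.96, 0 and 0 in WT and at 6.30, 0, 1.08 and 4.80 in TGA, while Scarna13 was above 0 in WT number 2 alone, at 6.83. Snord15b was at 8.14, 7.77, 0 and 4.06 in WT class 8 and at 0, 4.05, 2.10 and 3.52 in TGA class 8. TGA class 8 lay wholly below TGA class 2 for Snord15b and Snora73b, 2 of 14, against 2.56% of genes.

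Against class 4, class 8 was higher for 14 of 14, where 47.6% of all genes were lower, with a median difference of 1.89 against 0.06 over all genes, and no member was called, as 0% of tested genes were (limma). An unadjusted p under 0.05 was reached by 5, against 3.69% of genes higher at that p: Snord17 (3.77, SE 1.28), Snord15a (2.33, SE 0.88), Snord118 (2.85, SE 1.21), Scarna2 (2.60, SE 1.19) and Snord22 (2.61, SE 1.2), each with a limma adjusted p of 0.718. Without WT number 4 or TGA number 2 the count of 5 became 3. Snord118 was above 0 in 7 of 8 class 8 libraries, with a median of 4.71, and in 2 of 8 class 4 libraries. TGA class 4 lay wholly below TGA class 8 for Snord17, 1 of 14, against 1.17% of genes. Snord15a and Snord22 had class 8 medians of 8.72 and 7.78, next to 9.01 and 7.16 in class 2. The comparisons of class 4 with class 2 and of class 8 with class 4 share the class 4 libraries, so the values stand side by side and are not independent. The limit that the filter sets on counts over the 14 holds here too.

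**Figure D5:**
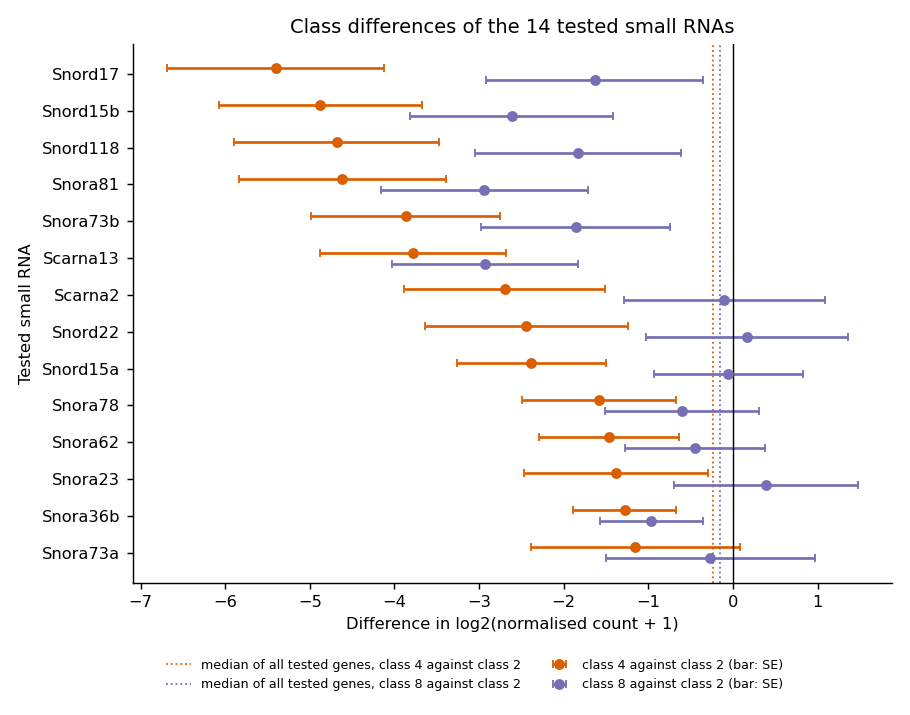
Points give the difference in log2(normalised count + 1) of class 4 and of class 8 against class 2 for the 14 tested small RNAs, with bars of 1 SE, and dotted lines mark the medians over all tested genes. All 14 differences of class 4 lie below 0, from -5.40 to -1.15, and those of class 8 run from -2.94 to 0.39.

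The largest genotype difference among the 14 was in Scarna2, and it did not pass the adjusted threshold. Against WT, over all classes, no member was called in TGA (limma), where 0.492% of tested genes were. Scarna2 was at 5.37, 8.56, 6.36 and 5.79 in WT class 2 and at 0, 1.82, 4.32 and 0.87 in TGA class 2. In class 4 it was at 0.71, 6.91, 3.90 and 0 in WT and at 0 in all 4 TGA libraries, and in class 8 at 7.44, 8.26, 0 and 6.67 in WT and 0, 5.87, 0.53 and 3.52 in TGA. The genotypes overlapped in classes 4 and 8. Of the 14 RNAs, 11 were below 0 in TGA against WT, as were 45.3% of all genes, with a median difference of -0.45. Without WT number 2 this was 7 of 14, with a median of -0.01, and 8 of 14 when the 4 libraries in which more than 7000 genes were detected were left out.

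Its difference of TGA against WT was -3.59 (SE 1.06, limma adjusted p = 0.125), and it was the 1 RNA of the 14 with an unadjusted p under 0.05, against 5.23% of genes lower at that p. In class 2 alone, where 0.103% of genes were called, Scarna2 differed by -4.77 (SE 1.68, limma adjusted p = 0.367). Snora73a (-1.89), Snord22 (-1.32), Snord15b (-1.24) and Snora62 (0.75) followed, with limma adjusted p of 0.560, 0.670, 0.713 and 0.731. Snord17 differed by -0.01 between the genotypes. No interaction of genotype with class was called among the 14 (limma, 0% of genes), and 1 had an unadjusted p under 0.05, Snora36b for class 8 against class 2 (2.63, SE 1.22, limma adjusted p = 0.999), against 1.6% of genes higher at that p. The summed level of 6 hepatocyte markers (Alb, Apoa1, Apob, Ttr, Serpina1a and Cps1) also differed, with a range of 233 to 12566 and a median of 622 normalised counts in WT and a range of 1885 to 25434 and a median of 14257 in TGA, and its part in the Scarna2 difference was not tested.

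Related copies were compared per length. Snord15a and Snord15b lie in the ribosomal protein gene Rps3 and share 107 of 162 aligned columns (66.0%). Per length, Snord15a was above Snord15b in 23 of 24 libraries, and both were at 0 in WT number 3 class 4. The medians of Snord15a and Snord15b were 348 and 74.4 normalised counts per 100 bases in class 2, 92.3 and 0 in class 4 and 283 and 8.97 in class 8. Snora73a and Snora73b share 198 of 205 bases (96.6%), and reads that fit both copies could be assigned to either, so their separate values are uncertain. Their summed level had medians of 4.91, 0.83 and 4.62 (log2) in classes 2, 4 and 8.

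Most hosts of the tested RNAs were above 0 in fewer libraries than the RNAs inside them. The tested RNAs had to reach the filter in at least 4 libraries, and their hosts did not. GENCODE placed 115 of the 123 within a host gene on the same strand, 60 in an intron and 55 over an exon of some host transcript. Snord15a was above 0 in 23 libraries and Rps3 in 5, Snord22 in 22 and its noncoding host Snhg1 in 2, Snora23 in 22 and Ipo7 in 6, and Snora81 in 16 and Eif4a2 in 3. Snord17 was above 0 in 16 libraries and Snx5 in 4, all of them among the 16, and the libraries of Rps3, Snhg1 and Eif4a2 were likewise all among those of Snord15a, Snord22 and Snora81. The hosts Snhg3, Snhg9 and Snhg10, of Snora73a and Snora73b, Snora78 and Scarna13, were at 0 in all 24. Snora73a and Snora73b, above 0 in 12 and 14 libraries, also lie within Rcc1, above 0 in 7, of which 5 were shared with each. The reverse held for Snora62, above 0 in 7 libraries, with the ribosomal protein gene Rpsa above 0 in 17, of which 6 were shared. Snora36b and its host Rab3gap2 were each above 0 in 6. Among RNAs that were not tested the order varied. Tpt1 was above 0 in 14 libraries and Snora31 in 1, and Ncl in 15 and Snora75 in 1, but Rpl23 in 1 and Snora21 in 5. Of the 11 hosts of tested RNAs, Rpsa alone could be tested. Snord118 and Scarna2 have no host in GENCODE. The part of host transcription in the class differences was not tested. Whether the authors counted by strand is not given in the sources used here, so reads from an overlapping host exon or an antisense gene cannot be told apart. Snora26 overlaps an exon of its host Dancr, and both were above 0 in the same 3 libraries. Their mean levels were the same in classes 2, 4 and 8 (0.12, 0.81 and 0). Whether the same reads were counted for both was not tested.

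Across the 24 libraries the gene most like Snord17 was Snord15b, with a Pearson r of 0.85 as a description without a test. The next were Sart1 (0.85), C130074G19Rik (0.84), Mast3 (0.83) and Herpud1 (0.83), and the median over 4874 genes was 0.09. Snord118 ranked 10 (0.77), whereas Snora23 had an r of 0.08. The points share the number of genes detected per library. Snord17 was at 0 in 8 libraries. There Snord15b was at 0 in 6, Snora81 in 6 and Snord118 in 5, while Snord15a and Snora23 were at 0 in 1 each. In the other 16 libraries Snord15b was at 0 in 1, Snora81 in 2 and Snord118 in 2. Over all tested genes, 65.5% of values were 0 in the first 8 libraries and 48.5% in the other 16.

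Genes of the proteins that work with these RNAs were mostly too low to test. Of the core proteins of these particles 2 of 8 in the table were tested, and neither was called: fibrillarin (Fbl) differed by -1.15 and dyskerin (Dkc1) by 1.2 in class 4 against class 2 (limma adjusted p = 0.591 and 0.418). Of the particle assembly factors 0 of 11 were tested, and of Cajal body proteins 1 of 6, Ice1, which differed by -1.31 (limma adjusted p = 0.584). Of 13 genes of the small-subunit processome and of ribosomal RNA modification 3 were tested and 1 was called, Bms1, a GTPase of small-subunit assembly, which fell by 4.61 (SE 1.08, limma adjusted p = 0.039), while Ncl (nucleolin) differed by -1.83 and Nat10 by 0.02. Over all genes tested 0.308% were called, and Bms1 was called in 3 of 17 alternatives (limma adjusted p from 0.0279 to 0.242), and not when any 1 number of either genotype was left out. Of 35 host genes on a list that overlaps these, 9 were tested and 0 were called, with 2 lower at an unadjusted p under 0.05 (limma).

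Other small noncoding RNAs had lower values in class 4 as well. Of the 9 RNAs listed, 7 were tested, 7 were below 0 against class 2, as were 57.8% of all genes, and 2 were called, where 0.308% of genes were: Vaultrc5, an RNA of the vault particle, fell by 4.71 (SE 0.78, limma adjusted p = 0.0014) and Rpph1, the RNA of RNase P, by 1.72 (SE 0.38, limma adjusted p = 0.039). Vaultrc5 was called in 16 of 17 alternatives, with a limma adjusted p of 0.0511 with no filter on low values. Rpph1 was called in 7 of 17 (limma adjusted p from 0.00216 to 0.203), and not when WT number 2, 3 or 4 or TGA number 1 or 2 was left out (0.0865, 0.144, 0.0894, 0.0958 and 0.115). Rn7sk, which holds back transcription elongation, differed by -4.31 (SE 1.12, limma adjusted p = 0.0752). The 6 hepatocyte markers were all below 0 in class 4 against class 2 and 0 were called, 2 of them at an unadjusted p under 0.05 (limma). Their summed level had medians of 11159, 3620 and 1457 normalised counts in classes 2, 4 and 8, with ranges of 476 to 25434, 233 to 14239 and 432 to 24333. By genotype the medians were 643, 709 and 622 in WT classes 2, 4 and 8 and 23774, 7312 and 14270 in the TGA classes, so that class 4 was lowest in TGA. Apoa1 was above 0 in 24 of 24 libraries and Alb in 19. Of the marker lists of other liver cells, 2 endothelial genes (Kdr and Stab2) were tested and neither was called, and no macrophage, stellate, bile duct, lymphocyte or erythroid marker was tested. The highest median sum of such a list in any class was 7.17 normalised counts (endothelial, class 2). Single libraries reached 163 (endothelial, class 8), 114 (bile duct, class 4), 97.8 (lymphocyte, class 2), 53.9 (macrophage, class 8), 49.2 (stellate, class 8) and 2.40 (erythroid, class 8). The part of cell makeup in the class differences was not tested.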

How the data were processed

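Total RNA of 24 mouse liver libraries (6 groups of 4) was read from one end over 75 bp, per the labels' protocols. TopHat, edgeR and build mm9 were used, per the submitters' processing notes, with the counting program, annotation and strand setting not given in the sources used here. The deposited table holds 35974 symbols on a natural log scale, per the file's values: the authors appear to have taken ln(count + 1) and quantile-normalised it (20 of 24 libraries share the highest value). Read totals cannot be recovered, which leaves the depth unknown and allows no counting interval.

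Dividing each value by ln 2 gave log2(normalised count + 1), a scale that can misstate changes of low genes. The 4875 genes with 4 or more libraries at a deposited value of 1 or above were fitted with limma-trend (limma 3.58.1, R 4.3.3), 1 mean per group and no covariate, and adjusted by Benjamini-Hochberg over all 4875, with a threshold of 0.05. For the genotype comparison, the 3 libraries with the same genotype and number were averaged first. The planned test for log values was used. The limma fit was tried on the values of this series shuffled within each gene, with known shifts added in class 4 to some genes. Such shifts move values off 0, unlike the data, and the trial covered the fit alone.

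Lengths, hosts and sequences came from GENCODE M21 (GRCm38), with 122 of 123 RNAs matched by symbol, and lengths also from RefSeq. Hosts were taken from GENCODE because the RefSeq table gives no strand. Box C was searched in the first 30 bases in place of the 50 planned. No coordinates are given, because the builds differ. Normalised counts per 100 bases divide by the GENCODE length (pandas 2.3.3, Biopython 1.88).

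RNAs were named if called in any comparison, if among the 5 smallest p-values of an averaged comparison, if among the 10 highest means (5 for H/ACA, 3 for Cajal body RNAs), or if above 0 in at least 18 libraries. Others are named for their host or function. The members, lists and rules were chosen with earlier results of these data known. Alternatives were the filter, the pseudocount, centring, a covariate for genes detected, no trend, leaving out libraries and a replicate block.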

Additional observations from a re-analysis of the deposited data

Results flagged for a closer look

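Within the groups of 4, 23 of 92 sets of values that were not all equal had 1 library far from the other 3 by Dixon's test at the 95% level. Chance flags about 1 in 20 groups. In 17 of the 23 the other 3 libraries were at 0, so that a single value above 0 was enough. All values are levels as log2(normalised count + 1).

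In 6 groups the 3 other libraries were above 0. In WT class 2, Snora23 was at 0 in number 3, while Snord118 was at 1.97 and Snord17 at 0 in number 4. In TGA class 2, Snora73a was at 0 in number 2 and Snord22 was at 4.54 in number 4. In TGA class 8, Snord17 was at 0.50 in number 3. WT number 4 class 2 and TGA number 3 class 8 are among the 4 libraries with over 7000 genes above 0.

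A single library above 0 was found in these groups. WT number 1 held the one value of Snora62 in class 2 (3.22) and those of Snora36b (0.51), Snora62 (0.53), Snora73b (1.32) and Snord118 (6.13) in class 4. WT number 2 held those of Scarna13 (6.83), Snora62 (2.45) and Snora78 (3.28) in class 8. TGA number 2 held that of Snora81 (6.15) in class 4 and those of Snora36b (3.02), Snora62 (6.22), Snora73a (5.35) and Snora73b (3.10) in class 8. TGA number 4 held Snora36b (1.62) in class 2 and Snora73b (3.85) and Snord118 (6.44) in class 4, and TGA number 3 held Snord15b (1.75) in class 4.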

How the results depend on the processing

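The number of these RNAs called in class 4 against class 2 depended on the settings. It was 1 as reported, 0 with no filter on low values, with a pseudocount of 16, with each library centred on its mean, with the number of genes above 0 as a covariate and with no trend in the prior, 4 with a stricter filter (8 or more libraries at 1 or above: Snora81, Snord118, Snord15b and Snord17) and 3 when the 4 libraries above 7000 genes were left out. Leaving out 1 number of a genotype gave 0 to 3, and leaving out WT number 3 class 4, chosen after the data were seen, gave 0. Within TGA the count of 1 became 0 with no filter, a pseudocount of 16, centring, the covariate or without WT number 3 class 4, 2 with the stricter filter, 2 without those 4 libraries, and 0 to 2 when a number was left out. Snord17 ranged from -7.15 to -2.82, with limma adjusted p from 0.00171 to 0.449, and was called in 5 of 17 alternatives. Without the 4 libraries 1 RNA (Snord17, limma adjusted p = 0.0329) was called in class 8 against class 4, and with centring 1 (Scarna2, limma adjusted p = 0.0433) in TGA against WT. None of the RNA differences named by the rule changed sign in the alternatives, but counts of direction did move. Against class 2, 8 of 14 class 8 differences in place of 12 were below 0 without TGA number 3. Against class 4, 1 class 8 difference in place of 0 was below 0 without TGA number 2. The cause was not tested.

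Most same-numbered libraries of a genotype did not deviate together (24 pairs, r from -0.10 to 0.43, median 0.03, 2 over 0.1), so the numbers were not taken as pairs. The highest r was that of WT number 1 in classes 2 and 4. Differently numbered libraries gave r from -0.21 to 0.12 (72 pairs, median -0.01, 2 over 0.1). With a replicate block 3 RNAs were called in class 4 against class 2 (Snord118, Snord15b and Snord17) and 2 within TGA.

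Class means shifted with their construction. Over tested RNAs alone, C/D box means were 6.70, 3.57, 6.38, 7.35, 2.55 and 5.27 and H/ACA box means 3.78, 1.47, 3.03, 3.39, 1.31 and 2.23 in WT classes 2, 4 and 8 and TGA classes 2, 4 and 8. With a pseudocount of 16 they were 5.51, 4.73, 5.46, 5.6, 4.51 and 5.11, and 4.66, 4.21, 4.58, 4.48, 4.21 and 4.31. With centring, TGA class 2 was at 3.08 (C/D box) and 1.14 (H/ACA box) and TGA class 4 at 0.73 (H/ACA box). Unknown depth limits every value at 0.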
